A study of Homo sapiens with 30 samples.

Results

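Transcript levels of 8 genes of sterol synthesis and its control by SREBP2 were followed in 2 human cell lines treated with Omomyc. The genes are HMGCS1, SQLE, INSIG1, IDI1, FDFT1, FDPS, SREBF2 and SC5D. They were taken by symbol from a table of 57992 genes, and all 8 are in it and passed the filter on low values in every comparison. Omomyc is a miniprotein made of the dimerization and DNA-binding part of MYC with altered contact residues, and it was given to the cells as a protein. RNA was sequenced from 30 libraries in 10 groups of 3 replicates. HCT116, a colon carcinoma line labelled "MYC stabilized", was untreated or received 2 or 10 μM Omomyc for 6 or 24 h. Ramos, a Burkitt's lymphoma line labelled "MYC translocation", was untreated or received 0.5 or 2.5 μM Omomyc for 6 or 24 h. All values are RPKM, which divides the reads of a gene by its length and by the reads of the library. Levels of different genes are therefore on 1 scale, but the sums of RPKM differ between libraries, and results that another scaling of the libraries changes are given with it.

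Several features of the design limit what a comparison can show. Each line has a single untreated group with no time point of its own, and every treated group of that line was compared with it, so the comparisons share these control libraries. Omomyc entered HCT116 cells with ProteoJuice, a protein transfection reagent, mixed in Opti-MEM, a medium with little serum. By the stated protocol, incubations as long as 6 h or 24 h also received medium with serum. The sources do not say whether the untreated cells were given the reagent or Opti-MEM. Effects of Omomyc, of the reagent and of the medium therefore cannot be told apart. The treatment of the Ramos cells is not described in the sources used here. Nothing says that the replicates were separate cultures, so the p-values measure the spread between libraries, which may be technical. In RNA from bulk cells, fewer cells of a kind and less RNA per cell cannot be told apart either.

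The members take part in the synthesis of cholesterol from acetyl-CoA and are given in the order of the pathway. HMGCS1 (ENSG00000112972, chr5:43289395-43313512, minus strand of GRCh38) encodes the cytosolic HMG-CoA synthase, near the entry to the pathway. IDI1 (ENSG00000067064, chr10:1039152-1049170, minus strand) interconverts the isoprenoid units isopentenyl and dimethylallyl diphosphate. FDPS (ENSG00000160752, chr1:155308748-155320666, plus strand) joins these units to farnesyl diphosphate, from which protein prenylation also draws. FDFT1 (ENSG00000079459, chr8:11795573-11839309, plus strand) is squalene synthase, the first step that leads only to sterols, and SQLE (ENSG00000104549, chr8:124998497-125022283, plus strand) is squalene epoxidase, a rate-limiting enzyme of that branch. SC5D (ENSG00000109929, chr11:121292453-121308694, plus strand) is a late-acting sterol desaturase. The regulators are INSIG1 (ENSG00000186480, chr7:155297776-155310235, plus strand), which retains the SREBP precursor, and SREBF2 (ENSG00000198911, chr22:41833079-41907308, plus strand).

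The transcription factor SREBP2, encoded by SREBF2, drives the genes of this pathway. SREBP2 is made as a precursor in the membrane of the endoplasmic reticulum. When sterols are low, the escort protein SCAP carries it to the Golgi, where it is cut and its free domain enters the nucleus. When sterols are high, the INSIG proteins hold SCAP and SREBP2 back. INSIG1 and SREBF2 are themselves SREBP2 targets, which closes feedback loops of opposite sign.

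Promoter sequence is shown for the members with the largest rises at 6 h in HCT116 cells, HMGCS1 and INSIG1, and for FDPS and SREBF2, which were lower there. Each window holds the 250 bases before a RefSeq transcription start on GRCh38.p14, 5′ to 3′ on the strand of the gene, and capitals mark matches to TCACNCCAC (a sterol regulatory element), CACGTG (the E-box of MYC and MAX) or CCAAT (the box bound by NF-Y), read on both strands.
HMGCS1, chr5:43313413-43313662, minus strand: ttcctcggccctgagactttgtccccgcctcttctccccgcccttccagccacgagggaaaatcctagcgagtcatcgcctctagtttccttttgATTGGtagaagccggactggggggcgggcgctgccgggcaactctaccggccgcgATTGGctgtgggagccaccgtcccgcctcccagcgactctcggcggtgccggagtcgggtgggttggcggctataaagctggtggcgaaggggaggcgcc
INSIG1, chr7:155297628-155297877, plus strand: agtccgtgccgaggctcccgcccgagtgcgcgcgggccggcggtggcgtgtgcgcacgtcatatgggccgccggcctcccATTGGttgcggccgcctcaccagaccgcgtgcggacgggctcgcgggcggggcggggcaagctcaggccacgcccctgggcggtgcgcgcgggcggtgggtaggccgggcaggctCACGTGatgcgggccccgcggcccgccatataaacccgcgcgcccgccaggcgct
FDPS, chr1:155308616-155308865, plus strand: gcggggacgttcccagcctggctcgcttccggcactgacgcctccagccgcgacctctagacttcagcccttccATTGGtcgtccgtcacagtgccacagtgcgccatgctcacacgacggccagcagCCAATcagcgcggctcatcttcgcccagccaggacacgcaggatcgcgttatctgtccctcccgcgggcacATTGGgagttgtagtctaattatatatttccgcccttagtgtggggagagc
SREBF2, chr22:41832855-41833104, plus strand: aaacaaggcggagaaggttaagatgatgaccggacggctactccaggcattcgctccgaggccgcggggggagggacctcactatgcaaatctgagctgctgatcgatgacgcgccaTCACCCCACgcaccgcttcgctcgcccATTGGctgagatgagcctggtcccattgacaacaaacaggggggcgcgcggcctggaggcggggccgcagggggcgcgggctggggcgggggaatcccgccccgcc
A window was held for 6 of the 8 members, with 10 windows in all. CCAAT or its complement occurred in 8 of these windows and in at least 1 window of all 6 members, beside 32.0% of the 35116 promoter windows of the same length. TCACNCCAC occurred in 1 of the 10 windows, that of SREBF2, beside 0.883% of all windows. CACGTG occurred in 3 of the 10 windows, of INSIG1 and SC5D, beside 6.34% of all windows. The SC5D windows overlap and share the same match. Another HMGCS1 window, not shown, held no match to any of these sequences. A match describes the letters only, and the data hold no measure of binding.

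The libraries of a group resembled each other closely, and each line carried the markers of its tissue. Pearson's r of log2 values between replicates ran from 0.988 to 0.997 in HCT116 and from 0.994 to 0.997 in Ramos cells, and no pair of libraries was identical. Of 6 epithelial markers, 5 were at 1 RPKM or more in HCT116, where VIL1 was under 0.1, and 6 of 6 B-cell markers were in Ramos; the summed epithelial markers ran from 1414 to 2231 RPKM in HCT116 against at most 1.74 in Ramos, and the summed B-cell markers from 1498 to 1672 RPKM in Ramos against at most 3.08 in HCT116. The RPKM of a library summed to 593633 to 1051041 in HCT116 and to 783788 to 973736 in Ramos. Replicate 3 of HCT116 with 10 μM Omomyc for 6 h stood apart with a sum of 1051041 against 791845 and 795720 in its mates, and the noncoding RNA RN7SL1 took 19.7% of it. Results that use this group are therefore also given without that library. The number of reads is unknown, so no interval based on depth is given.

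In untreated cells the 8 genes were expressed in both lines, and 7 of them stood higher in Ramos. FDPS had the highest level of the members in each line, with 98.8, 97.5 and 93.8 RPKM in untreated HCT116 and 203, 215 and 215 RPKM in untreated Ramos cells. HMGCS1 stood at 16.9, 14.7 and 15.1 RPKM in HCT116 and at 67.2, 58.1 and 60.3 RPKM in Ramos, and INSIG1 at 12.7, 14.7 and 12.5 RPKM against 58.6, 49.7 and 52.6 RPKM. They were the members that differed most between the lines, and their ranges were far apart. On the scale of log2(RPKM + 0.5), on which all differences here are given, HCT116 was lower than Ramos by limma for INSIG1 (−1.97), HMGCS1 (−1.96), IDI1 (−1.62), FDPS (−1.12), SREBF2 (−1.12), FDFT1 (−0.99) and SC5D (−0.35, adjusted p = 0.0122). SQLE was the exception, with 27.7, 27.4 and 24.4 RPKM in HCT116 and 27.9, 28.1 and 28.2 RPKM in Ramos cells, a difference of −0.08 that did not pass (limma adjusted p = 0.21). The 7 of 8 members called, all lower in HCT116, are to be read against 84.6% of all genes tested between the lines (45.7% higher and 39.0% lower in HCT116), and the median difference was −1.12 for the members and 0.09 for all genes. The SC5D difference turned to 0.21 when each library was rescaled to an equal sum of RPKM, and its adjusted p was 0.0551 without untreated HCT116 replicate 3.

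**Figure D1:**
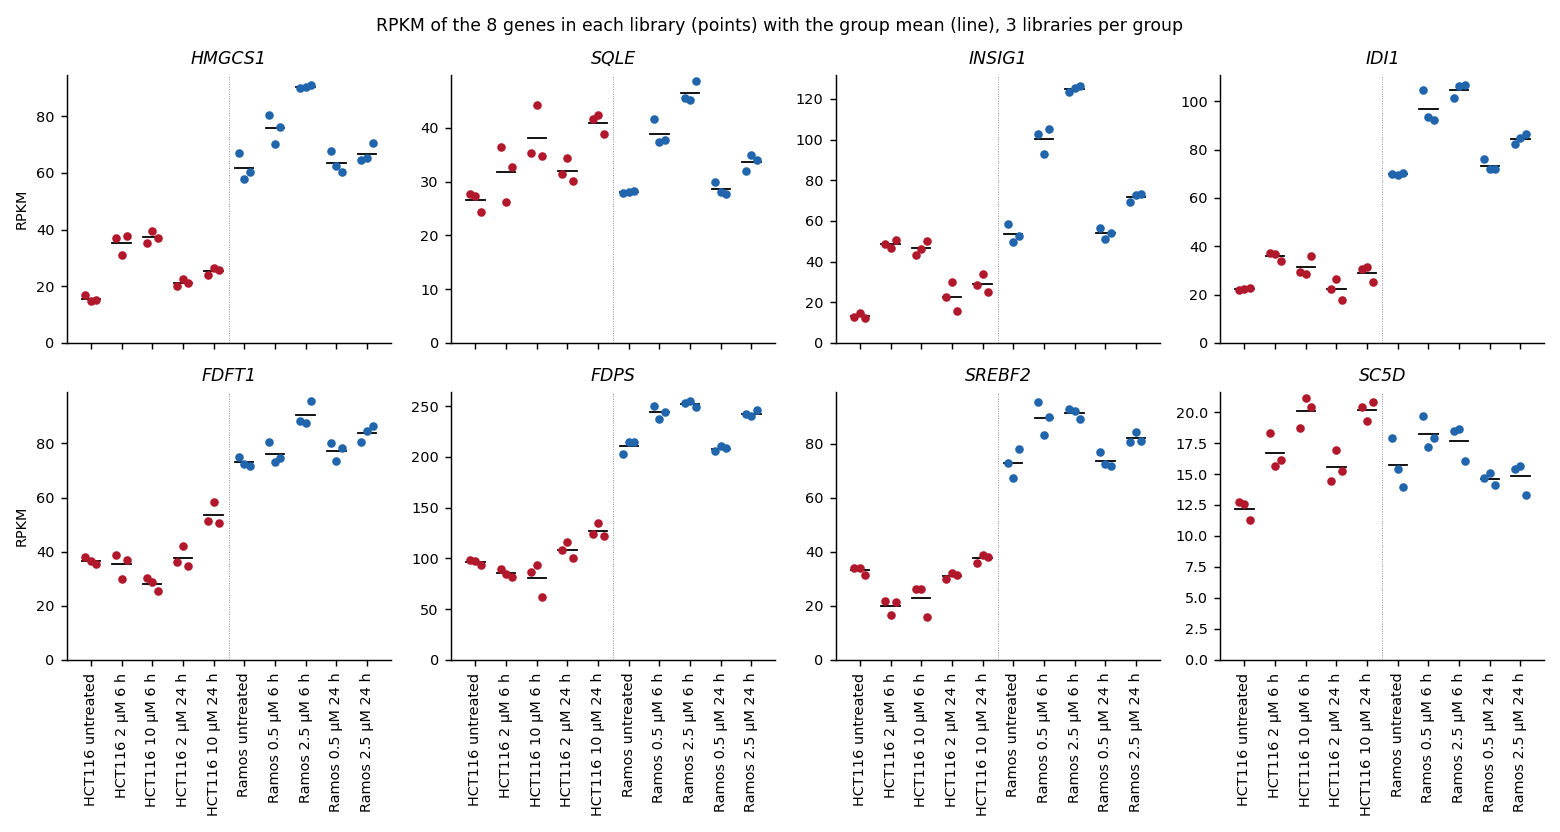
RPKM of each of the 8 genes (y axis, linear from 0, 1 panel per gene) in the 10 groups (x axis), with a point per library and a line for the mean of 3 replicates. INSIG1 and HMGCS1 are highest at 6 h in both lines, and SREBF2 dips at 6 h in HCT116 while it is raised at 6 h in Ramos cells.

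After 6 h with 2 μM Omomyc in HCT116 cells, INSIG1, HMGCS1, IDI1 and SC5D rose while SREBF2 and FDPS fell. INSIG1, the sterol-dependent retention factor, went from 12.7, 14.7 and 12.5 RPKM in untreated cells to 48.7, 46.7 and 50.5 RPKM, a log2 difference of 1.83 (SE 0.078, limma adjusted p = 1.37e-06). HMGCS1 went from 16.9, 14.7 and 15.1 RPKM to 37.2, 31.1 and 37.7 RPKM, a log2 difference of 1.15 (SE 0.0914, adjusted p = 3.43e-05). For both genes every treated library lay far above every untreated one. SREBF2, the gene of the transcription factor itself, moved the other way, from 34.2, 33.8 and 31.6 RPKM to 21.7, 16.7 and 21.5 RPKM, a log2 difference of −0.73 (SE 0.1, adjusted p = 0.000464). None of its treated libraries reached the untreated range.

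Among the other enzymes at this dose and time, IDI1 rose from 22.1, 22.5 and 22.6 RPKM to 37.0, 36.9 and 33.8 RPKM (log2 difference 0.67, limma adjusted p = 9.15e-05). SC5D rose from 12.7, 12.6 and 11.3 RPKM to 18.3, 15.7 and 16.1 RPKM (0.44, adjusted p = 0.00284). Both groups of values were fully separated, although the SC5D change was smaller. FDPS fell slightly, from 98.8, 97.5 and 93.8 RPKM to 89.2, 85.1 and 81.6 RPKM (−0.18, adjusted p = 0.034), and this call was lost without any 1 of the untreated libraries or without treated replicate 3 (adjusted p 0.0687 to 0.127). FDPS also lost its call without the eBayes trend, with the replicate block and with all 5 groups in one fit, and it stood at −0.037 with median-ratio scaling (adjusted p = 0.669). SQLE did not pass at 36.4, 26.1 and 32.8 RPKM against 27.7, 27.4 and 24.4 RPKM (0.25, adjusted p = 0.101), but passed without treated replicate 2, its lowest library (adjusted p = 0.00466). FDFT1 overlapped with the untreated cells at 38.7, 30.0 and 37.1 RPKM (−0.06, adjusted p = 0.611). Of the 8 members, 4 were called higher and 2 lower, beside 47.3% of all 14550 genes tested called in either direction (15.5% higher and 31.8% lower). The members' median log2 difference was 0.34 against −0.12 over all genes. With equal sums of RPKM, which moved the median of all genes to −0.42, 3 members were called higher and 3 lower, and SC5D was no longer called at 0.11 (adjusted p = 0.472). All genes called were then 623 higher and 8595 lower of 14601.

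Raising the dose to 10 μM for 6 h gave HCT116 cells a similar profile. INSIG1 stood at 43.3, 46.1 and 49.9 RPKM (log2 difference from untreated cells 1.77, limma adjusted p = 0.000235) and HMGCS1 at 35.2, 39.4 and 37.2 RPKM (1.23, adjusted p = 0.000522). SC5D at 18.7, 21.2 and 20.4 RPKM (0.70, adjusted p = 0.00337) and SQLE at 35.3, 44.4 and 34.8 RPKM (0.51, adjusted p = 0.02) were also higher. In these genes every treated library was above every untreated one, but with equal sums of RPKM SC5D fell short of the threshold at 0.22 (adjusted p = 0.361) and SQLE at 0.024 (adjusted p = 0.932). IDI1 rose to 29.5, 28.3 and 35.9 RPKM (0.47, adjusted p = 0.0203), which became −0.020 with equal sums of RPKM. FDFT1, which had not passed at the lower dose, fell to 30.4, 28.7 and 25.6 RPKM (−0.37, adjusted p = 0.0288), a call lost with median-ratio scaling (−0.24, adjusted p = 0.0593). Thus 5 members were called higher and 1 lower, beside 30.0% of all genes tested (8.84% higher and 21.2% lower), and the median log2 difference was 0.49 for the members and −0.11 for all genes.

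The library that stood apart bore on SREBF2 and FDPS at 10 μM and 6 h. SREBF2 was at 26.2 and 26.1 RPKM in replicates 1 and 2 and at 16.0 RPKM in replicate 3, against 31.6 to 34.2 RPKM in untreated cells (log2 difference −0.57, limma adjusted p = 0.0559). FDPS was at 87.1, 93.4 and 62.2 RPKM (−0.28, adjusted p = 0.213). In both genes replicate 3 was by far the lowest. Without it, SREBF2 passed at −0.34 (adjusted p = 0.00278) and FDPS stayed uncalled at −0.10 (adjusted p = 0.179), which gave 5 members higher and 2 lower. SREBF2 also passed without replicate 2 (adjusted p = 0.0486). INSIG1 and HMGCS1 were at 1.71 and 1.24 without replicate 3, and with all libraries at 1.28 and 0.75 with equal sums of RPKM, where both still passed. With that scaling SREBF2 (adjusted p = 0.0125) and FDPS (−0.77, adjusted p = 0.0295) were called lower. The FDFT1, SQLE and IDI1 calls were each lost without any 1 of the untreated libraries, and that of FDFT1 also without treated replicate 2 (adjusted p 0.0522 to 0.127 for FDFT1, 0.0676 to 0.0951 for SQLE and 0.078 to 0.0872 for IDI1).

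In Ramos cells members rose at 6 h as well, SREBF2 and FDPS among them. With 2.5 μM Omomyc, INSIG1 went from 58.6, 49.7 and 52.6 RPKM to 123, 125 and 126 RPKM, a log2 difference of 1.22 (SE 0.0592, limma adjusted p = 1.6e-05). SQLE followed, from 27.9, 28.1 and 28.2 RPKM to 45.6, 45.1 and 48.7 RPKM (0.72, SE 0.0473, adjusted p = 4.28e-05). IDI1 went from 69.9, 69.4 and 70.2 RPKM to 102, 106 and 107 RPKM (0.58, SE 0.0389, adjusted p = 4.62e-05). The treated libraries agreed within a few RPKM and lay well above the untreated ones. HMGCS1 rose from 67.2, 58.1 and 60.3 RPKM to 89.8, 90.4 and 90.9 RPKM (0.55, adjusted p = 0.00026). SREBF2 rose from 72.8, 67.3 and 78.1 RPKM to 92.9, 92.0 and 89.1 RPKM (0.33, adjusted p = 0.00333). The rises of the farnesyl and squalene synthases were smaller.

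FDFT1 reached 88.2, 87.5 and 95.7 RPKM from 74.9, 72.3 and 71.8 RPKM (0.31, limma adjusted p = 0.00198) and FDPS 253, 255 and 249 RPKM from 203, 215 and 215 RPKM (0.26, adjusted p = 0.00183). SC5D alone did not pass, at 18.4, 18.6 and 16.0 RPKM against 17.9, 15.4 and 13.9 RPKM (0.17, adjusted p = 0.233). Over other processing settings SC5D ran from 0.13 to 0.30 (limma adjusted p 0.0384 to 0.429). So 7 of 8 members were called higher and 0 lower beside 27.9% of all genes (17.3% higher and 10.7% lower), with a median log2 difference of 0.44 against 0.03 over all genes, and no call among these 7 was lost on leaving out any 1 library.

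At the lower dose of 0.5 μM, 6 of 8 members were called higher in Ramos cells at 6 h and 0 lower, beside 23.6% of all genes (13.8% higher and 9.73% lower). INSIG1 was again the largest, at 103, 93.0 and 105 RPKM (0.90, limma adjusted p = 0.000139), followed by IDI1 at 105, 93.4 and 92.4 RPKM (0.47, adjusted p = 0.000616) and SQLE at 41.6, 37.4 and 37.8 RPKM (0.46, adjusted p = 0.000675). SREBF2 (0.30, adjusted p = 0.014), HMGCS1 (0.29, adjusted p = 0.016) and FDPS (0.21, adjusted p = 0.0101) rose less. The calls of HMGCS1 and SREBF2 were lost without treated replicate 1 or 3 (adjusted p 0.0569 to 0.0571 and 0.0501 to 0.0508). SC5D (0.21, adjusted p = 0.136) and FDFT1 (0.06, adjusted p = 0.445) did not pass, and SC5D passed without untreated replicate 1 (adjusted p = 0.0411).

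**Figure D2:**
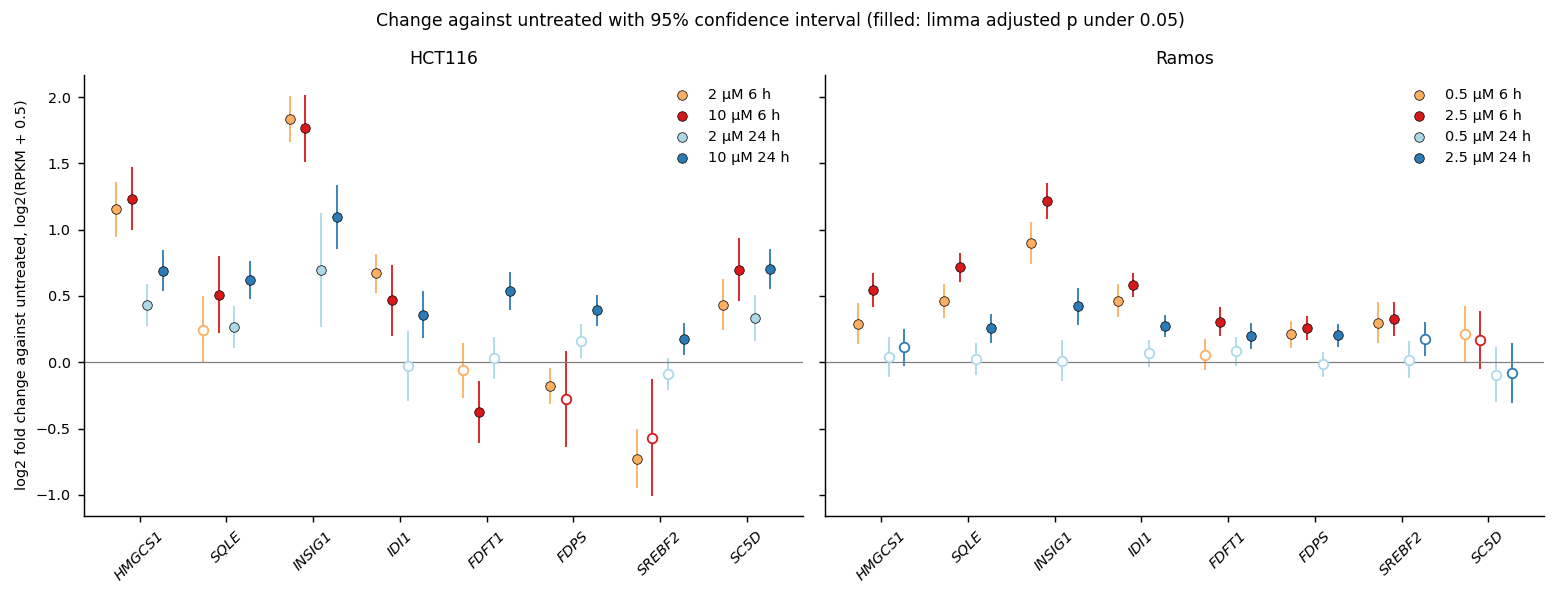
Difference of log2(RPKM + 0.5) from untreated cells of the same line (y axis) for each of the 8 genes (x axis), with a colour per dose and time, a panel per line, filled points at an adjusted p under 0.05, and bars for the 95% confidence interval from limma. INSIG1 is the highest point at 6 h in each line, at 1.83 and 1.77 in HCT116 and 0.90 and 1.22 in Ramos cells, and SREBF2 lies below 0 at 6 h in HCT116 and above 0 at 6 h in Ramos cells.

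The difference between the lines at 6 h was tested as an interaction of line and treatment, with 2 μM in HCT116 against 2.5 μM in Ramos cells, the closest doses. SREBF2 gave the largest difference of the members, since it was −0.73 in HCT116 and 0.33 in Ramos cells, a difference of −1.06 (limma adjusted p = 8.73e-05). FDPS followed the same way with −0.18 against 0.26, a difference of −0.44 (adjusted p = 0.000285). These genes were thus lower after treatment in every HCT116 library and higher in every Ramos library than in the untreated cells of the line. SQLE (−0.47, adjusted p = 0.0184) and FDFT1 (−0.37, adjusted p = 0.0222) also had the lower difference in HCT116. Conversely, INSIG1 (0.62, adjusted p = 0.000633) and HMGCS1 (0.61, adjusted p = 0.00155) rose more in HCT116, from lower starting levels. IDI1 and SC5D were not called, with differences of 0.09 (95% interval −0.0532 to 0.229, adjusted p = 0.301) and 0.27 (−0.0321 to 0.565, adjusted p = 0.14).

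The 6 of 8 members called, 2 with a greater and 4 with a lower difference in HCT116, stand beside 40.6% of all genes tested for the interaction (12.2% and 28.4%), and the median difference was −0.14 for the members and for all genes alike. The scaling of the libraries bears on it. The calls of SREBF2 and FDPS held with the same sign under median-ratio scaling, quantile normalization and equal sums of RPKM, while INSIG1 and HMGCS1 shrank to 0.15 (adjusted p = 0.314) and 0.14 (adjusted p = 0.487) with equal sums. SQLE and FDFT1 lost their calls under median-ratio scaling (adjusted p = 0.0606 and 0.103). FDFT1 also lost it without untreated HCT116 replicate 1 (adjusted p = 0.0533) or treated Ramos replicate 3 (adjusted p = 0.0554). The lines differ in dose and possibly in how Omomyc was delivered, and these cannot be told apart from the line.

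**Figure D3:**
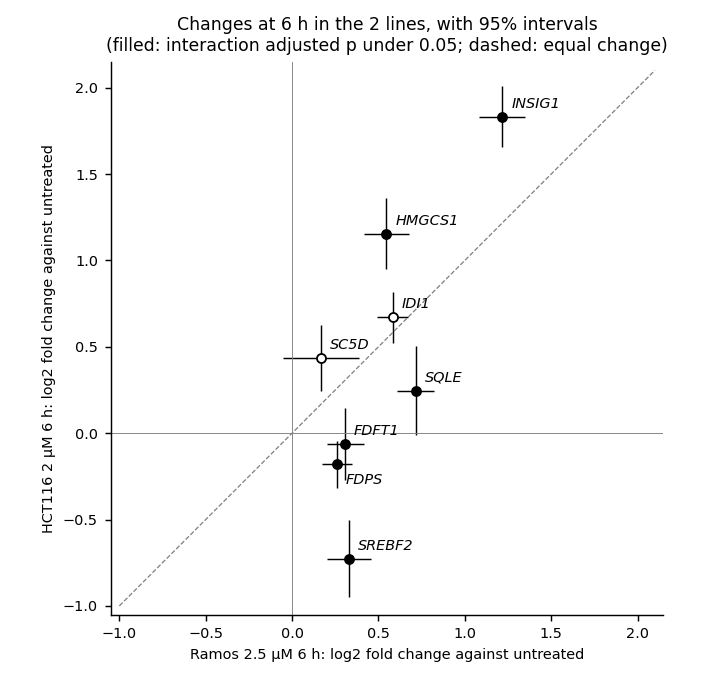
Log2 difference from untreated cells at 6 h in Ramos cells with 2.5 μM Omomyc (x axis) against HCT116 cells with 2 μM Omomyc (y axis), both as differences of log2(RPKM + 0.5), for the 8 members by name, with bars for the 95% confidence interval and filled points where the interaction passed; the dashed diagonal marks equal differences. INSIG1 and HMGCS1 lie above the diagonal, and SREBF2 and FDPS lie right of 0 on the x axis and below 0 on the y axis.

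By 24 h the HCT116 cells that had received 10 μM Omomyc held all 8 members above the untreated level, beside 35.2% of all genes called (19.5% higher and 15.7% lower). INSIG1 was at 28.4, 34.0 and 25.1 RPKM (log2 difference from untreated cells 1.10, limma adjusted p = 0.000108), SC5D at 20.4, 19.3 and 20.8 RPKM (0.70, adjusted p = 8.85e-05) and HMGCS1 at 24.1, 26.3 and 25.7 RPKM (0.69, adjusted p = 0.000116). SQLE was at 41.6, 42.4 and 38.9 RPKM (0.62, adjusted p = 0.000144), FDFT1 at 51.2, 58.4 and 50.4 RPKM (0.53, adjusted p = 0.000306) and FDPS at 124, 135 and 122 RPKM (0.39, adjusted p = 0.000619). None of these genes overlapped with the untreated libraries, and FDFT1 and FDPS, which at 6 h had not been higher, now were. IDI1 stood at 30.5, 31.2 and 25.2 RPKM (0.36, adjusted p = 0.00676). With equal sums of RPKM, FDPS at 0.20 (adjusted p = 0.118) and IDI1 at 0.17 (adjusted p = 0.235) lost their calls. SREBF2 was at 35.7, 38.7 and 38.1 RPKM against 34.2, 33.8 and 31.6 RPKM (0.18, adjusted p = 0.0336), a rise that became −0.0099 with equal sums of RPKM and lost its call without any 1 of the untreated libraries or of treated replicates 2 and 3 (adjusted p 0.0565 to 0.134). The median log2 difference was 0.58 for the members and 0.02 for all genes.

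With 2 μM at 24 h, 4 of 8 members were called higher in HCT116 and 0 lower, beside 27.3% of all genes (16.6% higher and 10.8% lower). HMGCS1 was at 20.0, 22.5 and 21.1 RPKM (0.43, limma adjusted p = 0.0034), SC5D at 14.4, 17.0 and 15.2 RPKM (0.34, adjusted p = 0.0131) and SQLE at 31.5, 34.4 and 30.1 RPKM (0.27, adjusted p = 0.0215). INSIG1 spread most, at 22.4, 30.1 and 15.5 RPKM (0.70, SE 0.191, adjusted p = 0.0263). Only the call of HMGCS1 held without each library in turn. That of INSIG1 was lost without untreated replicate 1 or 3 or treated replicate 1 (adjusted p 0.0671 to 0.0845), that of SQLE without untreated replicate 3 or treated replicate 1 or 2 (0.0512 to 0.0789), and that of SC5D without untreated replicate 3 (0.0538). FDPS was at 108, 116 and 101 RPKM (0.16, adjusted p = 0.061) and passed without treated replicate 3 (adjusted p = 0.0178). IDI1 (−0.03, adjusted p = 0.888), FDFT1 (0.03, adjusted p = 0.77) and SREBF2 (−0.09, adjusted p = 0.241) did not pass. With equal sums of RPKM, SQLE at 0.11 (adjusted p = 0.392) and SC5D at 0.18 (adjusted p = 0.18) lost their calls, and SREBF2 was called lower at −0.24 (adjusted p = 0.0427). SREBF2, at 29.9, 32.1 and 31.5 RPKM, was near the untreated 31.6 to 34.2 RPKM.

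In Ramos cells at 24 h fewer members were above the untreated level than at 6 h. With 0.5 μM, 0 of 8 were called by limma, with log2 differences of −0.0949 to 0.082 and a lowest adjusted p of 0.864, beside 0.0146% of all genes (2 of 13674, both higher; 763 genes had an unadjusted p under 0.05). INSIG1, for one, stood at 56.7, 51.2 and 53.9 RPKM against 58.6, 49.7 and 52.6 RPKM in untreated cells. With 2.5 μM, 5 of 8 were called higher and 0 lower beside 4.61% of all genes (3.30% higher and 1.31% lower). INSIG1 was at 69.4, 72.9 and 73.1 RPKM (0.42, limma adjusted p = 0.0119), IDI1 at 82.5, 84.8 and 86.4 RPKM (0.27, adjusted p = 0.0107) and SQLE at 32.1, 34.9 and 34.0 RPKM (0.26, adjusted p = 0.0268). FDPS (0.20, adjusted p = 0.0258) and FDFT1 (0.20, adjusted p = 0.0366) were also called. The values of INSIG1, IDI1 and SQLE did not overlap with those of untreated cells. HMGCS1 (0.11, adjusted p = 0.332), SREBF2 (0.17, adjusted p = 0.115) and SC5D (−0.08, adjusted p = 0.692) did not pass. Over other processing settings HMGCS1 ran from 0.040 to 0.32 (limma adjusted p 0.0169 to 0.777). SREBF2 ran from 0.10 to 0.38 (0.00987 to 0.365), so both passed under some settings. Equal sums of RPKM called 5221 of 13619 genes higher here, against 449 of 13607 in the reported fit.

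The calls in Ramos cells at 2.5 μM and 24 h depended on single libraries, and leaving out 1 gave between 0 and 5 members called. FDFT1 lost its call without any 1 of the 6 libraries (limma adjusted p 0.0529 to 0.163), SQLE without any 1 of 5 (0.0576 to 0.125), FDPS without any 1 of 4 (0.057 to 0.125), INSIG1 without any treated library (0.0505 to 0.0704) and IDI1 without treated replicate 2 or 3 (0.0686 to 0.0689), while SREBF2 gained one without untreated replicate 3 (0.0356).

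The decline between 6 and 24 h was itself tested within each dose. In Ramos cells with 2.5 μM, 6 of 8 members were lower at 24 h than at 6 h, beside 23.0% of all genes (12.7% higher and 10.4% lower), led by INSIG1 (−0.80), SQLE (−0.46) and HMGCS1 (−0.43). With 0.5 μM, 7 of 8 were lower, beside 25.4% of all genes (11.9% higher and 13.5% lower), with INSIG1 at −0.89, SQLE at −0.44 and IDI1 at −0.40. FDFT1 was the member not called at 0.5 μM, and FDFT1 and FDPS were those not called at 2.5 μM. In HCT116 cells the members split. With 2 μM, INSIG1 (−1.13), HMGCS1 (−0.72) and IDI1 (−0.70) fell back while SREBF2 (0.64) and FDPS (0.34) rose again, 5 of 8 called beside 40.8% of all genes (30.9% higher and 9.85% lower). The FDPS rise lost its call with median-ratio scaling (0.15, adjusted p = 0.175). With 10 μM, INSIG1 (−0.67) and HMGCS1 (−0.54) fell while FDFT1 (0.91), SREBF2 (0.74) and FDPS (0.67) rose, 5 of 8 called beside 7.86% of all genes (5.80% higher and 2.06% lower). Without replicate 3 of the 6 h group the same 5 members were called, at −0.62, −0.54, 0.84, 0.51 and 0.49 in that order. Leaving out other libraries ended the calls of INSIG1, HMGCS1 and SREBF2 in 5 cases each (adjusted p up to 0.133, 0.141 and 0.173) and that of FDPS in 4 (up to 0.173), but never that of FDFT1. With equal sums of RPKM, INSIG1 (−0.37, adjusted p = 0.195) and HMGCS1 (−0.24, adjusted p = 0.37) lost their calls at 10 μM, and SREBF2 (0.57, adjusted p = 0.0645) and FDPS (0.50, adjusted p = 0.0661) did so with median-ratio scaling.

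Fewer members were called between doses than between times. Between 10 and 2 μM in HCT116 cells, limma called 0 of 8 members at 6 h, where 0% of all genes were called and where leaving out replicate 3 of the 10 μM group also gave 0, and 0 of 8 at 24 h, beside 0.180% of all genes (0.140% higher and 0.0399% lower). At 24 h all 8 log2 differences between these doses were above 0, the lowest adjusted p being 0.0736 for FDFT1. Between 2.5 and 0.5 μM in Ramos cells, INSIG1 alone was called at 6 h (0.32, adjusted p = 0.0268), beside 0.429% of all genes (0.185% higher and 0.244% lower), and this call was lost without any 1 of the 6 libraries (adjusted p 0.0617 to 0.14). At 24 h SQLE, INSIG1, IDI1 and FDPS were higher with 2.5 μM than with 0.5 μM, beside 4.25% of all genes (2.39% higher and 1.86% lower), INSIG1 by 0.41 (adjusted p = 0.00355) and FDPS by 0.22 (adjusted p = 0.00973). The calls of SQLE and IDI1 were each lost without any 1 of 5 libraries (adjusted p up to 0.154 and 0.124), and that of FDPS without replicate 3 at 2.5 μM (0.0674).

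Most of the other 14 genes of sterol synthesis tested rose in Ramos cells at 6 h. At 6 h with 2.5 μM, 12 of 14 were called higher and 0 lower, beside 17.3% and 10.7% of all genes (median log2 difference 0.53 against 0.03), with rises in DHCR7 (0.94), MVK (0.83) and ACAT2 (0.72). DHCR7 is a reductase late in the pathway, MVK is mevalonate kinase and ACAT2 makes acetoacetyl-CoA at its start. With 0.5 μM, 11 of 14 were called higher and 0 lower, beside 13.8% and 9.73%, and between 8 and 9 were higher on leaving out 1 library. At 24 h the counts were 0 of 14 with 0.5 μM, beside 0.0146% of all genes, and 7 of 14 higher with 2.5 μM, beside 3.30%, the latter 0 without the filter on low values, 1 with median-ratio scaling and between 0 and 6 on leaving out 1 library. With 2.5 μM, 44 of 25387 genes were higher without the filter and 158 of 13610 with median-ratio scaling. In HCT116 cells the counts were mixed at 6 h, with 6 higher and 2 lower at 2 μM, beside 15.5% and 31.8% of all genes, and 4 higher and 1 lower at 10 μM, beside 8.84% and 21.2%. In either direction 8 of 14 were called at 2 μM, beside 47.3% of all genes. MSMO1, a sterol demethylase, rose by 0.81 and 1.04, and EBP, a sterol isomerase, by 0.54 and 0.65, whereas LSS, which closes the sterol ring, fell (−0.53 and −0.60). At 10 μM the call of EBP was lost on leaving out any 1 of 5 libraries (adjusted p up to 0.155) and that of LSS any 1 of 3 (up to 0.0946), and without replicate 3 of that group 8 of 14 were higher and 1 lower. With equal sums of RPKM the counts with all libraries became 1 higher and 5 lower at either dose. Of all genes, 623 were then higher and 8595 lower of 14601 at 2 μM, and 310 and 6925 of 14877 at 10 μM. At 24 h in HCT116, 7 of 14 were called higher with 2 μM, beside 16.6% of all genes, and 11 of 14 with 10 μM, beside 19.5%, with 0 lower in both, led at 10 μM by EBP (1.07), MSMO1 (0.92) and DHCR7 (0.81).

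**Figure D4:**
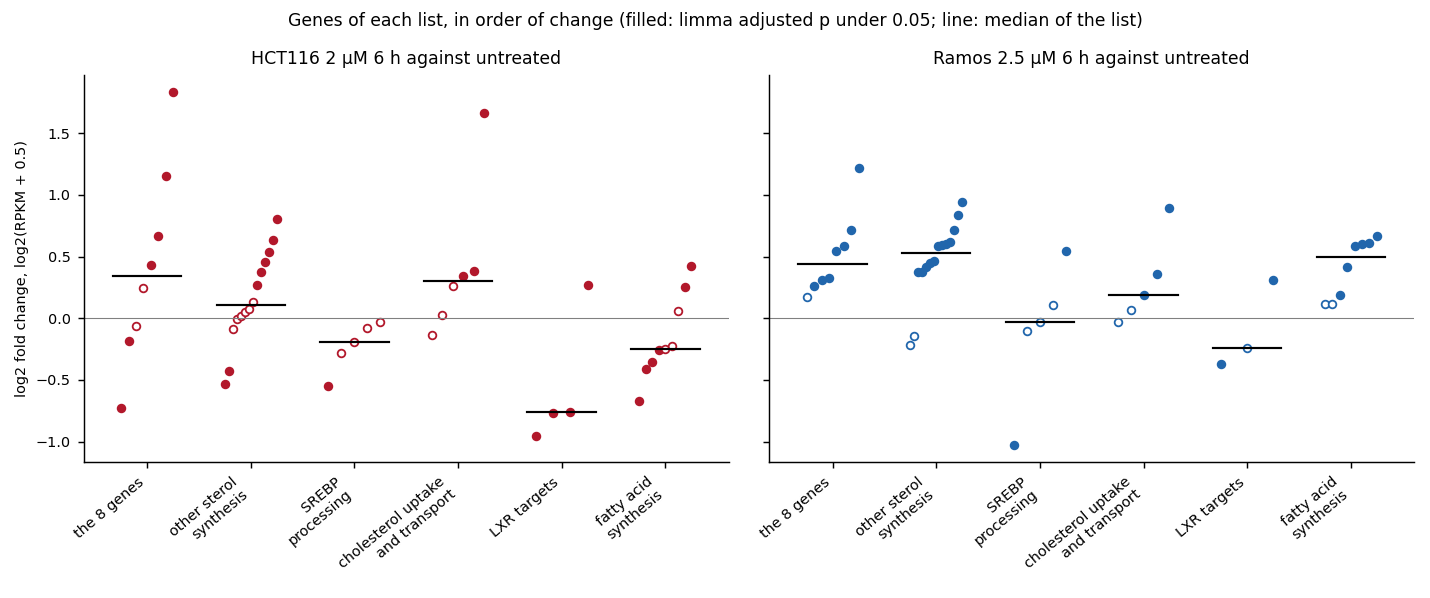
Log2 difference from untreated cells at 6 h (y axis) for each gene of the lists of sterol synthesis, SREBP processing, LXR targets, sterol uptake and transport, and fatty acid synthesis beside the 8 members (x axis), in HCT116 cells with 2 μM and Ramos cells with 2.5 μM Omomyc, with a point per gene, filled at an adjusted p under 0.05, and a line at the list's median. The median of other sterol synthesis genes is 0.10 in HCT116 and 0.53 in Ramos cells, and that of LXR targets is −0.76 in HCT116 cells.

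The shares of all genes called at 6 h, against which the following counts are to be read, were 15.5% higher and 31.8% lower in HCT116 with 2 μM and 17.3% higher and 10.7% lower in Ramos cells with 2.5 μM. Of 5 genes of SREBP processing, 0 were higher and 1 lower in HCT116 with 2 μM, where MBTPS1, a protease that cuts the SREBP precursor, was at −0.55. In Ramos cells with 2.5 μM, SREBF1, the gene of the related factor SREBP1, rose (0.55) and INSIG2, the second retention factor, fell from 11.3 ± 0.721 to 5.30 ± 0.423 RPKM (SD, n = 3 each), a log2 difference of −1.02. INSIG1 and INSIG2 thus moved in opposite directions in Ramos cells. INSIG2 was at 7.68 RPKM after 24 h with 2.5 μM (−0.53, a call lost on leaving out any 1 of 3 libraries, adjusted p up to 0.0644) and at 11.5 RPKM with 0.5 μM. Fatty acid synthesis genes, many of them targets of SREBP1, were called higher in 6 of 8 tested and lower in 0 in Ramos cells with 2.5 μM, led by FADS2 (0.67), FASN (0.61), FADS1 (0.60) and SCD (0.58). In HCT116 cells with 2 μM, 2 of 9 were higher and 4 lower, with ACSS2 at −0.67, FADS1 at −0.41 and FASN at −0.35 (the last lost on leaving out any 1 of 5 libraries, adjusted p up to 0.138), and ELOVL6 at 0.42. With equal sums of RPKM 0 were higher and 6 lower, beside 623 higher and 8595 lower of all 14601 genes tested.

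Targets of LXR, the receptor that senses oxysterols and promotes sterol export, were counted in both lines. In HCT116 cells at 6 h with 2 μM, 3 of 4 were lower and 1 higher, beside 31.8% and 15.5% of all genes, and in Ramos cells with 2.5 μM 1 of 3 tested was lower and 1 higher, beside 10.7% and 17.3%. In HCT116 cells ABCA1, a sterol exporter, was at 0.993 ± 0.0513 RPKM in untreated cells and at 0.27 ± 0.0426 RPKM with 2 μM (SD, n = 3 each; log2 difference −0.96), a level at which the pseudocount understates the change. ABCG1, a related exporter, was at −0.76 and MYLIP, a ubiquitin ligase acting on lipoprotein receptors, also at −0.76. LPCAT3, a phospholipid acyltransferase, was at 0.27, which turned to −0.060 with equal sums and lost its call without any 1 of 5 libraries (adjusted p up to 0.183). With 10 μM in HCT116, 3 of 4 were lower and 0 higher, beside 21.2% and 8.84% of all genes, and without replicate 3 of that group 3 were lower and 1 higher. Of 6 genes of sterol uptake and transport, 3 were higher at 2 μM and 6 h in HCT116 and 0 lower, with log2 differences over the list from −0.14 to 1.66 and STARD4 at 0.38. With 10 μM at 6 h, 2 were higher and 0 lower, over a range of 0.17 to 1.90. Without replicate 3 of that group 4 were higher and 0 lower. At 24 h with 10 μM 6 of 6 were higher, beside 19.5% of all genes, over a range of 0.28 to 0.63. In Ramos cells with 2.5 μM at 6 h, 3 of 5 tested were higher and 0 lower, over a range of −0.0263 to 0.90 and with NPC2 at 0.36.

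How closely the members followed each other was described within each line. Over the 15 Ramos libraries, the correlation (Pearson's r, given as a description, since the libraries share treatments) of each member with the mean of the other 7 was 0.98 for SQLE, INSIG1 and IDI1 and lowest for FDFT1 (0.644) and SC5D (0.582). Over the 15 HCT116 libraries it ran from −0.08 for SREBF2 to 0.87 for SQLE. The genes most like the members' mean among 11670 genes in HCT116 were NSDHL (0.927), CYP51A1 (0.927), ELOVL6 (0.902), CD63 (0.9) and TXNDC15 (0.89). The first 2 of these belong to sterol synthesis. In Ramos, among 10689 genes, they included DAG1 (0.974), ZNF589 (0.974), IFNG-AS1 (0.967) and IDH1 (0.967). CYP51A1, the sterol demethylase, gave −0.505 in Ramos cells, the opposite sign to HCT116.

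Overlapping and near-identical genes were checked, since reads can be shared with them. On the other strand, AC114947.2 (at HMGCS1) was at 0 RPKM in all libraries, IDI2-AS1 (at IDI1) at up to 0.832, RUSC1-AS1 (at FDPS) at up to 1.50, SREBF2-AS1 at up to 1.70 and AC069185.1 (at FDFT1) at up to 2.86 RPKM, and the libraries were made with a strand-specific kit. The 8 annotated FDPS pseudogenes reached at most 1.09 RPKM, against 62.2 RPKM or more for FDPS in every library.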

How the data were processed

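Total RNA depleted of rRNA was sequenced with a stranded kit from 30 libraries of 10 groups, 3 replicates each. The authors deposited RPKM for 57992 Ensembl genes with 1 column per library; RSEM is named in the submitters' processing notes without a version, and the genome build, aligner and reads used for scaling are not given in the sources used here. Depth is therefore unknown and no count model was used. Groups follow the titles, where a time tag reads 4 h for the libraries titled 24 h; the lower HCT116 dose is 2 μM in the labels and 2.5 μM in the methods. Symbols and positions came from GENCODE 29 on GRCh38 (57388 identifiers matched, 604 not), and promoters from RefSeq on GRCh38.p14.

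Log2(RPKM + 0.5) was fitted with limma 3.58.1 in R 4.3.3 (lmFit, eBayes with trend) on the libraries compared; genes whose RPKM averaged under 0.5 over them were left out. Adjusted p-values (Benjamini-Hochberg) run over all genes tested, with a threshold of 0.05. A two-sided exact permutation test of 3 against 3 libraries cannot give a p below 0.1, so single genes rest on limma. The procedure was tested on simulated data. There were 19 comparisons: 8 with untreated cells, 4 between times, 4 between doses, 1 between lines and 2 interactions. The members and the lists were chosen with earlier results of these data known. All members are named; of a list, at most the 4 genes with the largest called changes are, and some genes are counted but not named. Genes most like the members were ranked by Pearson's r over a line's libraries for genes averaging 2 RPKM or more. The settings varied were the pseudocount (0.1 or 1), the filter (none, or a minimum of 2), the scaling (median-ratio, quantile or equal-sum), the eBayes trend, a block on the replicate number, a single fit of all 5 groups in a line, and the omission of each library.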

Additional observations from a re-analysis of the deposited data

Results flagged for a closer look

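The effect of time or of the cell line on single members passed the test of the difference itself in 31 cases, all by limma at an adjusted p under 0.05. Of all genes, 40.8% and 7.86% were called between times in HCT116 at 2 and 10 μM. In Ramos cells these shares were 25.4% at 0.5 μM and 23.0% at 2.5 μM. Between 6 and 24 h of Omomyc, the log2 difference (24 h minus 6 h) in HCT116 cells at 2 μM was −0.72 for HMGCS1, −1.13 for INSIG1, −0.70 for IDI1, 0.34 for FDPS and 0.64 for SREBF2. At 10 μM it was −0.54 for HMGCS1, −0.67 for INSIG1, 0.91 for FDFT1, 0.67 for FDPS and 0.74 for SREBF2. In Ramos cells at 0.5 μM it was −0.25 for HMGCS1, −0.44 for SQLE, −0.89 for INSIG1, −0.40 for IDI1, −0.23 for FDPS, −0.28 for SREBF2 and −0.31 for SC5D. At 2.5 μM it was −0.43 for HMGCS1, −0.46 for SQLE, −0.80 for INSIG1, −0.31 for IDI1, −0.15 for SREBF2 and −0.25 for SC5D. SREBF2 therefore rose from 6 to 24 h in HCT116 and fell in Ramos cells, and the call of SC5D at 2.5 μM was lost on leaving out any 1 of 5 libraries (adjusted p 0.0517 to 0.145). The SREBF2 fall in Ramos at 2.5 μM ran from −0.17 to −0.088 over other processing settings. Its limma adjusted p there reached 0.208. The call of HMGCS1 at 0.5 μM was lost without replicate 3 of the 6 h (adjusted p = 0.0521) or the 24 h group (0.0518).

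The response to Omomyc differed between HCT116 at 2 μM and Ramos at 2.5 μM at 6 h for HMGCS1 (0.61), SQLE (−0.47), INSIG1 (0.62), FDFT1 (−0.37), FDPS (−0.44) and SREBF2 (−1.06), each as HCT116 minus Ramos. Of all genes tested for this interaction, 40.6% were called (12.2% with a greater and 28.4% with a lower difference in HCT116). At 24 h the same test called HMGCS1 (0.32, limma adjusted p = 0.0493) and SREBF2 (−0.26, adjusted p = 0.0409), 2 of 8 members beside 16.3% of all genes. Each of these calls at 24 h was lost on leaving out 9 of the 12 libraries in turn, and the HMGCS1 difference became −0.037 with equal sums of RPKM.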

How the results depend on the processing

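Over the members' values, leaving out 1 library kept the direction and the side of the threshold in 518 of 642 cases, and the other alternatives in 856 of 975. The calls of 7 members in Ramos cells at 2.5 μM and 6 h, and those of INSIG1 and HMGCS1 in HCT116 at 6 h, were lost under no omission of a library. Counts of members called on leaving out 1 library ran, in HCT116 against untreated cells, from 5 to 7 (2 μM, 6 h), 3 to 7 (10 μM, 6 h), 1 to 5 (2 μM, 24 h) and 7 to 8 (10 μM, 24 h), and in Ramos from 4 to 7 (0.5 μM, 6 h), 7 to 7 (2.5 μM, 6 h), 0 to 0 (0.5 μM, 24 h) and 0 to 5 (2.5 μM, 24 h). Between times they ran from 5 to 5 and 1 to 5 in HCT116 and from 6 to 7 and 5 to 6 in Ramos, between doses from 0 to 0 and 0 to 1 in HCT116 and from 0 to 0 and 1 to 4 in Ramos, between lines from 6 to 7, and for the interactions from 5 to 6 (6 h) and 0 to 3 (24 h).

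Counts that moved by over 1.5 times were as follows, and the cause was not tested. The numbers of all genes called higher and lower under the same setting stand beside them. Scaling hardly changed how many genes were tested. Without the filter on low values they were 1 in HCT116 at 2 μM and 24 h, 1 in Ramos at 2.5 μM and 24 h, 2 between times in HCT116 at 10 μM, 0 and 2 between Ramos doses at 6 and 24 h, and 0 for the interaction at 24 h. In HCT116 at 2 μM and 24 h all genes gave 1314 and 968 of 29848 tested, and in Ramos 44 and 40 of 25387. Between times in HCT116 at 10 μM the numbers were 169 and 127 of 29234. The Ramos doses gave 0 and 0 of 26121 and 21 and 44 of 25865, and the interaction 792 and 1156 of 32648. With eBayes without trend the same counts were 2, 0, 3, 0, 0 and 0, and Ramos at 0.5 μM and 6 h gave 3. Beside these stood, in order, 1925 and 1249 of 14886 genes, 6 and 18 of 13607, and 774 and 278 of 14920. Next came 0 and 0 of 13511, 8 and 46 of 13629, and 1041 and 1380 of 15714. Ramos at 0.5 μM and 6 h had 1374 and 1013 of 13614. Median-ratio scaling gave 2 in Ramos at 2.5 μM and 24 h and 3 between times in HCT116 at 10 μM, and quantile normalization 3 in the former and 2 between Ramos doses at 24 h. All genes gave 158 and 192 of 13610 and 414 and 554 of 14916 with median-ratio scaling. With quantile normalization they gave 143 and 180 of 13607 and 159 and 285 of 13629. Equal sums of RPKM gave 5 in HCT116 at 10 μM and 24 h, 3 between its times, 7 between Ramos doses at 24 h and 5 for the interaction at 24 h. In that order all genes gave 1001 and 3899 of 14831 and 1396 and 119 of 14989. The Ramos doses had 2377 and 190 of 13629, against 326 and 253 in the reported fit. The interaction had 344 and 6053 of 15787, against 1070 and 1495 of 15714. A minimum mean RPKM of 2 and all 5 groups in one fit gave 2 and 3 between Ramos doses at 6 h, and a pseudocount of 0.1 gave 1 for the interaction at 24 h. All genes gave 46 and 45 of 10654 and 35 and 49 of 13594, and with the pseudocount 872 and 1319 of 15714. Scaling also moved the split of higher against lower calls: at 2 μM and 6 h in HCT116 from 4 and 2 to 5 and 1 (median-ratio), at 10 μM and 6 h from 5 and 1 to 5 and 0 (median-ratio), 5 and 2 (quantile) or 2 and 3 (equal sums), at 2 μM and 24 h from 4 and 0 to 2 and 1 (equal sums), between times at 2 μM from 2 and 3 to 1 and 4 (median-ratio), between times at 10 μM from 3 and 2 to 1 and 2 (median-ratio) or 3 and 0 (equal sums), between lines from 0 and 7 to 1 and 6 (equal sums), and for the interaction at 6 h from 2 and 4 to 4 and 2 (median-ratio), 3 and 4 (quantile) or 0 and 5 (equal sums).

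Directions turned for FDFT1 in HCT116 at 2 μM and 6 h (0.081 with median-ratio scaling, −0.13 to 0.048 on leaving out 1 library, the latter without treated replicate 2) and at 24 h (−0.022 with median-ratio scaling, −0.12 with equal sums, −0.049 to 0.088 on leaving out 1 library, the former without treated replicate 2), for SQLE at 2 μM and 6 h (−0.086 with equal sums), for IDI1 at 2 μM and 24 h (−0.16 to 0.12 on leaving out 1 library, the latter without treated replicate 3) and for SC5D in Ramos at 2.5 μM and 24 h (0.12 with equal sums, −0.16 to 0.011 on leaving out 1 library, the latter without untreated replicate 1), none of them called. Of called values, equal sums turned IDI1 at 10 μM and 6 h (−0.020), SREBF2 at 10 μM and 24 h (−0.0099), SC5D between lines (0.21) and HMGCS1 in the interaction at 24 h (−0.037). Deviations of the libraries from their group means were correlated between same-numbered libraries in 21 pairs of groups, some entered again for the interactions. In 0 of them did every such correlation exceed 0.1 (range −0.303 to 0.184). With 3 libraries per group this cannot exclude that the numbers pair the libraries. With the replicate block the counts were 2 in Ramos at 2.5 μM and 24 h, 1 between times in HCT116 at 10 μM, 1 between HCT116 doses at 24 h, 0 and 2 between Ramos doses at 6 and 24 h and 0 for the interaction at 24 h.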
